A study of Mus musculus with 18 samples.

Results

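The genes described are 9 mouse counterparts of human Alzheimer's disease risk genes that lie outside the Trem2 pathway of microglia: Bin1, Picalm, Cd2ap, Sorl1, Clu, Abca7, Ptk2b, Fermt2 and Mef2c. They were taken by symbol from a table of 18683 genes measured by bulk RNA sequencing, and all 9 had a row. Transcripts were measured in hippocampus and prefrontal cortex of male mice in 18 libraries, 3 for each of 3 groups in each tissue. The 5xFAD EV group was 5xFAD mice given extracellular vesicles, small membrane particles, from human breast milk. The 5xFAD PBS group was 5xFAD mice given the buffer PBS, and the wildtype PBS group was C57BL/6J mice without the transgenes given PBS. Every group received its agent into a vein, once every 3 days, in 10 injections between 5 and 6 months of age, and all mice went through behavioural tests and perfusion with PBS before the tissue was taken. The 5xFAD strain, labelled as C57BL/6J too, carries transgenes that include mutated human APP under the neuronal Thy1 promoter and deposits amyloid early, so it models amyloid load driven by transgenes and not the common late-onset disease in which these 9 genes carry risk variants. Nothing in the labels gives the mouse behind a replicate number, so p-values here cover the spread between libraries, which may be technical.

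Several of the 9 genes act in pathways by which neurons and glia take up, sort and clear membrane proteins. Cell surface proteins such as the amyloid precursor protein are drawn into clathrin-coated pits, carried to endosomes, then returned to the surface, passed to the Golgi or sent to lysosomes, and the route decides which proteases they meet. Lipid carriers, integrin adhesion and activity-dependent transcription account for the remaining members.

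The dissections were checked against region markers. The dentate gyrus factor Prox1 stood at 8.74 to 13.8 FPKM in hippocampus and 1.05 to 3.21 FPKM in prefrontal cortex, where FPKM is fragments scaled by gene length and library size. Replicate 3 of the 5xFAD EV prefrontal cortex stood apart: 247 genes, 2.10% of those compared, lay over 2-fold from the median of the other 8 cortical libraries, against 10 to 119 genes in each of those 8. The summed level of 9 genes of cerebellar neurons was 946 FPKM in it and 18.9 to 29.5 FPKM in the other 8, and that list was drawn up after the library had been seen to stand apart. Its summed level of 13 choroid plexus genes was 872 FPKM, against 5.09 to 14.0 FPKM in the other 8. Its sums of glutamatergic neuron genes, 1499 FPKM, and of neocortical neuron genes, 115 FPKM, were the lowest in prefrontal cortex. For the 9 genes, the vesicle differences in prefrontal cortex and the tissue differences averaged over groups are given with and without this library. The summed level of 8 genes of striatal neurons in prefrontal cortex also differed widely between libraries, at 111, 621 and 210 FPKM in 5xFAD EV, 363 to 519 FPKM in 5xFAD PBS and 236 to 678 FPKM in wildtype PBS, and its part in the cortical values was not tested. In hippocampus, the summed level of 13 choroid plexus genes was 190 to 5768 FPKM in 5xFAD EV, 2648 to 8983 FPKM in 5xFAD PBS and 37.6 to 172 FPKM in wildtype PBS libraries. The summed level of 14 microglial genes there was 864 to 1540 FPKM in 5xFAD EV, 1119 to 1238 FPKM in 5xFAD PBS and 321 to 380 FPKM in wildtype PBS libraries. In bulk tissue, a different number of cells of a type and a different amount of RNA per cell cannot be told apart.

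The 9 genes spanned a wide range of levels. Clu was the most abundant, at a mean of 610 FPKM in hippocampus and 384 FPKM in prefrontal cortex, above 99.7% of all listed genes in hippocampus and 99.5% in prefrontal cortex. Ptk2b followed at 222 FPKM in hippocampus and 134 FPKM in prefrontal cortex, then Bin1 at 83.2 FPKM in hippocampus and 68.5 FPKM in prefrontal cortex, and Picalm at 45.2 FPKM in hippocampus and 42.8 FPKM in prefrontal cortex. Sorl1 averaged 28.8 FPKM in hippocampus and 34.2 FPKM in prefrontal cortex and Fermt2 27.2 FPKM in hippocampus and 24.9 FPKM in prefrontal cortex, and the libraries of these 2 genes overlapped in both tissues. Cd2ap, at 3.83 FPKM in hippocampus and 3.88 FPKM in prefrontal cortex, and Abca7, at 1.70 FPKM in hippocampus and 1.90 FPKM in prefrontal cortex, were the lowest, and their libraries overlapped in both tissues. Within every single library, Cd2ap lay above Abca7. The cortical overlap came from 5xFAD EV replicate 3 alone, with Abca7 at 3.68 FPKM against 1.52 to 1.94 FPKM in the other cortical libraries. Abca7 rested on 233 to 858 reads per library and Cd2ap on 389 to 1202, while Clu had 27306 to 65126. Mef2c is left out of this order, because the length behind its FPKM was 56354 bases, exceeded in only 12 of 18683 genes and 3.59 times the merged exons of the gene in a GENCODE annotation, so its FPKM can be compared between libraries but not with other genes.

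**Figure D1:**
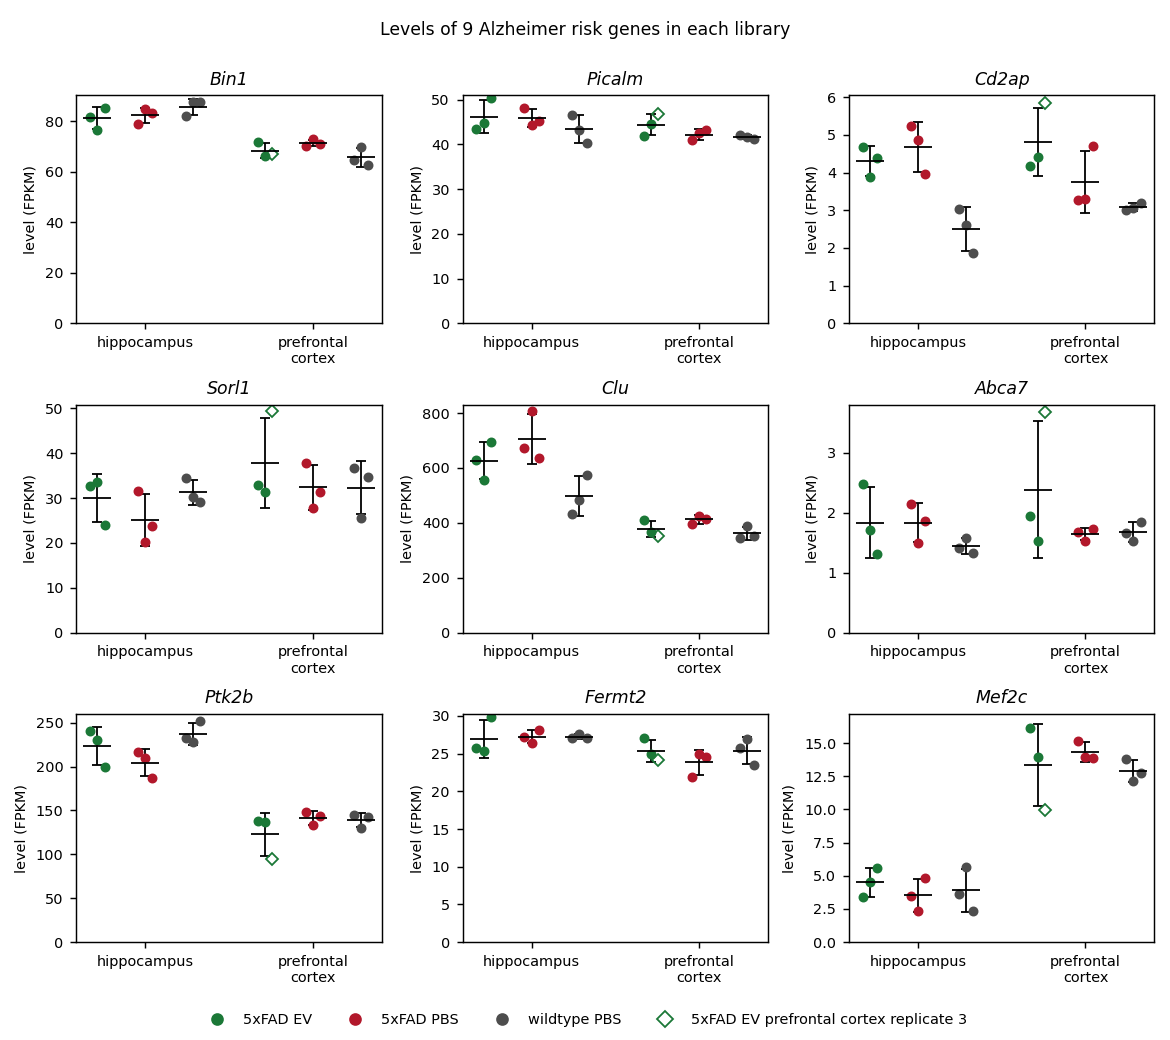
Level of each of the 9 genes in every library (y axis, FPKM, from 0) by tissue and group (x axis), with points for libraries and the black bar and whiskers for the mean and SD of 3 libraries. Cd2ap separates 5xFAD from wildtype PBS in hippocampus, Mef2c and Ptk2b separate the tissues, and the open diamond, 5xFAD EV prefrontal cortex replicate 3, lies above all other cortical libraries for Abca7, Sorl1, Cd2ap and Picalm and below them for Ptk2b and Mef2c.

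Of the 9 genes, 1 was called between genotypes, 0 with the vesicles and 5 between the tissues. A gene was called where limma's test on log2(FPKM + 0.5) gave a Benjamini-Hochberg adjusted p under 0.05 over all genes tested. All 9 genes passed the filter on low values in every fit. Between 5xFAD PBS and wildtype PBS, 1 of 9 genes was called in hippocampus, where 4.59% of all 13305 genes were called. In prefrontal cortex 0 of 9 were called, where 1.96% of 13055 genes were called. An unadjusted p under 0.05 was seen for 2 of the 9 in hippocampus, beside 2500 of 13305 genes. In prefrontal cortex it was seen for 0 of the 9, beside 1065 of 13055 genes. Between 5xFAD EV and 5xFAD PBS, 0 of 9 were called in either tissue, and limma called 0 genes of the whole table in both (0% in each), with 519 genes in hippocampus and 616 in prefrontal cortex at an unadjusted p under 0.05. A second test, limma with voom on reads recovered from the FPKM steps, also called 0 genes there. Between 5xFAD EV and wildtype PBS, 0 of 9 were called, beside 2.1% of genes in hippocampus and 1.52% in prefrontal cortex. At an unadjusted p under 0.05 there was 1 of the 9 in prefrontal cortex, beside 1959 of 13055 genes. The lowest adjusted p-values of the 9 in hippocampus were 0.0666 for Cd2ap and 0.384 for Clu (limma). Between hippocampus and prefrontal cortex, 5 of 9 were called, beside 41.4% of all 13574 genes, so a tissue difference was common in the table as a whole. The libraries of the 2 tissues did not overlap for 4 of the 9 (Bin1, Clu, Ptk2b and Mef2c), where 10.6% of all genes did not. Without 5xFAD EV prefrontal cortex replicate 3, 5734 genes of the whole table were called between the tissues, beside 5616 with all libraries. Of the 9, 4 were called without it: Bin1 (0.27), Clu (0.63), Ptk2b (0.67) and Mef2c (-1.75). The log2 tissue differences of the others without it were 0.11 for Fermt2 (limma adjusted p = 0.0622), 0.09 for Picalm, 0.0082 for Cd2ap, -0.17 for Sorl1 and -0.0039 for Abca7, which was at -0.105 with all libraries.

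**Figure D2:**
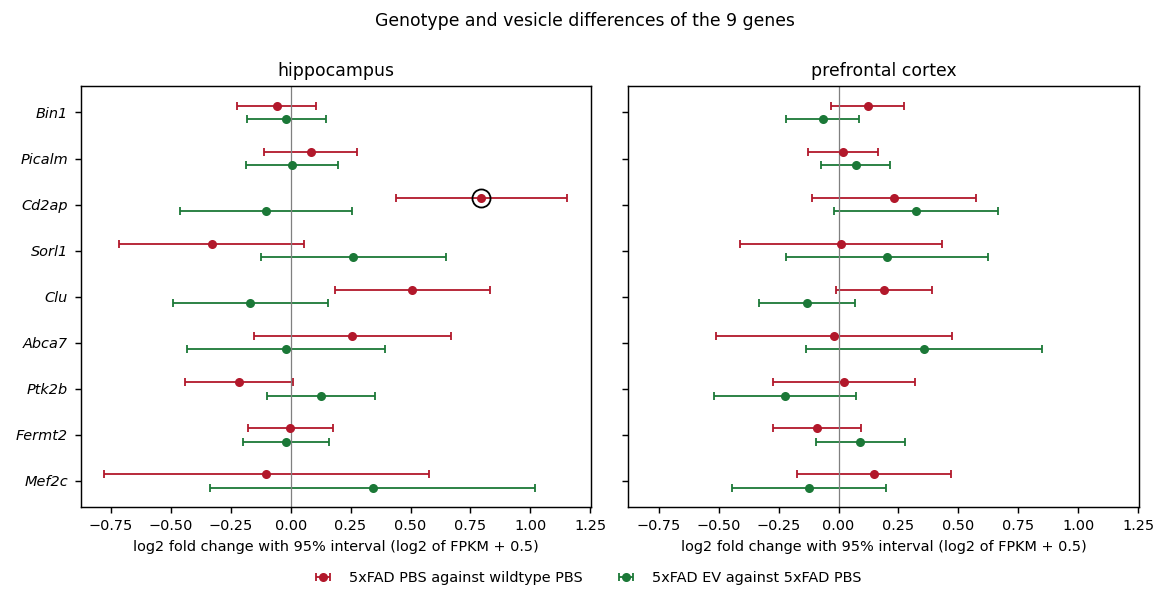
Log2 fold change (x axis) of each gene (y axis) with its 95% interval from limma, for 5xFAD PBS against wildtype PBS in red and 5xFAD EV against 5xFAD PBS in green, in hippocampus (left) and prefrontal cortex (right). The ringed point, Cd2ap in 5xFAD PBS against wildtype PBS hippocampus at 0.80, is the only call, and the intervals of all vesicle differences include 0.

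Among the 4 genes of endocytosis and sorting, Cd2ap was higher in 5xFAD hippocampus and the others were not called. Cd2ap encodes a scaffold that ties membrane receptors and endocytic proteins to actin. It had 5.23, 4.86 and 3.96 FPKM in 5xFAD PBS hippocampi, against 3.05, 2.60 and 1.88 FPKM in wildtype PBS hippocampi, so every 5xFAD PBS library lay above every wildtype one. The log2 fold change was 0.80 (SE 0.16, 95% interval 0.44 to 1.15, limma adjusted p = 0.0211, higher in 3 of 3 libraries), about 1.74-fold. The call was lost on leaving out any of 4 single libraries: adjusted p was 0.0787 without 5xFAD PBS replicate 1, 0.0739 without 5xFAD PBS replicate 2, 0.0682 without wildtype PBS replicate 2 and 0.0540 without wildtype PBS replicate 3 (limma), while the fold change stayed between 0.64 and 0.92 without any 1 library.

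In 5xFAD EV hippocampi Cd2ap had 4.67, 3.88 and 4.38 FPKM. These 3 libraries also lay above all wildtype PBS ones (18.6% of all genes did not overlap between these groups) and overlapped those of 5xFAD PBS, with log2 fold changes of 0.69 against wildtype PBS (SE 0.16, limma adjusted p = 0.0666) and -0.10 against 5xFAD PBS (95% interval -0.46 to 0.26). The comparisons share libraries and are not independent. Microglial markers moved in the same direction: 12 of 14 rose in 5xFAD PBS hippocampus and 0 fell, and their part in the Cd2ap result was not tested. Of 13 choroid plexus markers, 8 rose in 5xFAD PBS hippocampus and 0 fell. The 5xFAD EV hippocampus replicate 3, whose choroid plexus sum of 190 FPKM was close to the wildtype range, had 4.38 FPKM of Cd2ap, above all 3 wildtype PBS libraries. The same library had the highest microglial sum in hippocampus, 1540 FPKM. The part of choroid plexus or microglial transcripts in its Cd2ap value was not tested.

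In prefrontal cortex Cd2ap was 4.17, 4.40 and 5.85 FPKM in 5xFAD EV, 3.27, 3.29 and 4.71 FPKM in 5xFAD PBS and 3.00, 3.06 and 3.19 FPKM in wildtype PBS libraries. Neither 5xFAD group overlapped wildtype PBS (19.3% of all genes did not overlap between 5xFAD EV and wildtype PBS), but no difference was called: the log2 fold change was 0.23 for 5xFAD PBS against wildtype PBS (SE 0.15, limma adjusted p = 0.890; 0.076 without 5xFAD PBS replicate 3) and 0.55 for 5xFAD EV against wildtype PBS (SE 0.15, limma adjusted p = 0.139). Without replicate 3 the 5xFAD EV value was 0.42 (limma adjusted p = 0.299). Libraries without overlap between 5xFAD PBS and wildtype PBS were found for 4 of 9 genes in prefrontal cortex (Bin1, Cd2ap, Clu and Mef2c), where 14.7% of all genes did not overlap, and for 3 of 9 in hippocampus (Cd2ap, Clu and Ptk2b), where 25.5% did not. The genotype difference of Cd2ap was larger in hippocampus than in prefrontal cortex by 0.57 on the log2 scale (SE 0.23, unadjusted p = 0.0261, limma adjusted p = 0.764), so a difference between the tissues was not shown. For this difference limma called 0 of 13574 genes (0%), with 787 at an unadjusted p under 0.05, and voom called 0. Cd2ap was also not called between tissues, at -0.04 (SE 0.09, limma adjusted p = 0.780), and the difference of hippocampus from prefrontal cortex was -0.13 in 5xFAD EV, 0.29 in 5xFAD PBS and -0.27 in wildtype PBS.

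Bin1, which encodes a protein that binds and bends membranes, was not called between groups in either tissue. In hippocampus it had 81.9, 76.7 and 85.5 FPKM in 5xFAD EV, 78.9, 84.8 and 83.4 FPKM in 5xFAD PBS and 82.1, 87.8 and 87.5 FPKM in wildtype PBS libraries, and the groups overlapped. The interval of the 5xFAD PBS difference from wildtype PBS was -0.22 to 0.11 on the log2 scale, and that of the 5xFAD EV difference from 5xFAD PBS was -0.18 to 0.15. Its relative Bin2, a membrane-bending protein of blood and microglial cells, rose in the same libraries to 6.40 ± 0.702 FPKM in 5xFAD PBS, against 2.46 ± 0.549 FPKM in wildtype PBS (SD, n = 3 each), a log2 fold change of 1.23 (SE 0.18, limma adjusted p = 0.00393). Another relative, Amph, lay the other way without a call, at 78.4 and 88.9 FPKM, a log2 fold change of -0.18 (SE 0.07, limma adjusted p = 0.214). Bin1 was higher in hippocampus than in prefrontal cortex, at 83.2 ± 3.71 and 68.5 ± 3.51 FPKM (SD, n = 9 each), by 0.28 (SE 0.04, limma adjusted p = 1.64e-05), and the 9 hippocampal libraries, from 76.7 to 87.8 FPKM, did not overlap the 9 cortical ones, from 62.6 to 72.9 FPKM.

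Picalm, a clathrin adaptor that helps coated pits form, varied little. Its highest library exceeded its lowest 1.25-fold in hippocampus and 1.14-fold in prefrontal cortex, and its log2 fold changes between groups ran from 0.01 to 0.09. The tissue difference was 0.08 (SE 0.04, limma adjusted p = 0.146).

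Sorl1, a VPS10 receptor that steers the amyloid precursor protein through retromer and away from cleavage, differed more between libraries than between groups. In hippocampus it had 32.6, 33.6 and 24.0 FPKM in 5xFAD EV, 31.5, 20.1 and 23.8 FPKM in 5xFAD PBS and 34.5, 30.3 and 29.0 FPKM in wildtype PBS libraries. The groups overlapped, and the difference of 5xFAD PBS from wildtype PBS was -0.33 (95% interval -0.71 to 0.06, limma adjusted p = 0.347). Sorl1 has the longest gene length of the list apart from Mef2c, at 11243 bases, and it was compared with the slope of each library's values over gene length. The lowest Sorl1 libraries in each tissue, 5xFAD PBS hippocampus replicate 2 at 20.1 FPKM and wildtype PBS prefrontal cortex replicate 2 at 25.5 FPKM, had the most negative slopes, -0.176 and -0.108 log2 units per doubling of length. The second lowest cortical library, 5xFAD PBS replicate 2 at 27.9 FPKM, had the second most negative slope there, -0.0837, while the second lowest hippocampal library, 5xFAD PBS replicate 3 at 23.8 FPKM, had the fourth most negative, -0.0264. The part of this trend in the Sorl1 values was not tested. The tissue difference was -0.24 (SE 0.11, limma adjusted p = 0.106), and it passed the threshold without wildtype PBS prefrontal cortex replicate 2 (-0.29, adjusted p = 0.0478) or without 5xFAD PBS hippocampus replicate 1 (-0.30, adjusted p = 0.0429). Its relatives Sort1 and Sorcs1 were not called with genotype or vesicles in either tissue, while Sorcs1 was lower in hippocampus than in prefrontal cortex by 1.42 on the log2 scale, at 1.41 ± 0.380 and 4.58 ± 0.785 FPKM (SD, n = 9 each, limma adjusted p = 4.75e-08).

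**Figure D3:**
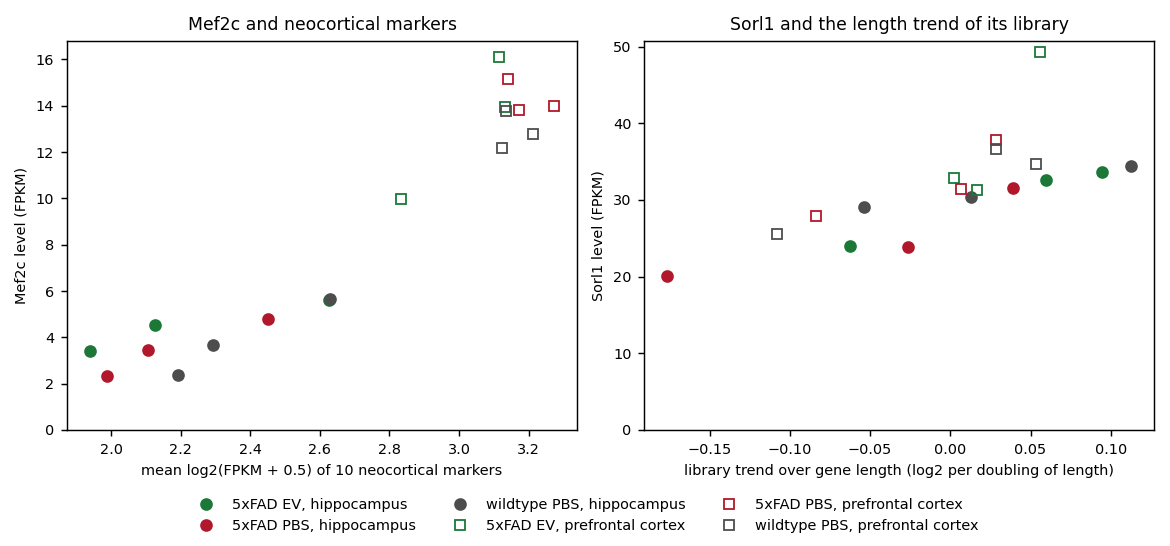
Left, Mef2c level (y axis, FPKM) against the mean log2(FPKM + 0.5) of 10 neocortical marker genes (x axis) in each library; right, Sorl1 level (y axis, FPKM) against the slope of the library's values over gene length (x axis). Filled circles are hippocampus, open squares prefrontal cortex, colours are groups, and the lowest Sorl1 libraries, at 20.1 and 25.5 FPKM, sit at the most negative slopes of their tissues.

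Of the 2 lipid-handling genes, Clu was higher in 5xFAD hippocampus without passing the threshold, and Abca7 was not distinguishable between groups. Clu encodes clusterin, a secreted chaperone and lipid carrier made largely by astrocytes and also by choroid plexus. It had 673, 807 and 636 FPKM in 5xFAD PBS hippocampi, against 433, 483 and 576 FPKM in wildtype PBS hippocampi, without overlap. The log2 difference was 0.51 (SE 0.14, 95% interval 0.18 to 0.83, unadjusted p = 0.00598, limma adjusted p = 0.0878, between 0.0672 and 0.253 over the alternatives). The 5xFAD EV hippocampi had 629, 558 and 694 FPKM, overlapping both other groups. The highest Clu library, 5xFAD PBS replicate 2, also had the highest choroid plexus sum, 8983 FPKM. The 5xFAD EV replicate 3 had 694 FPKM of Clu at a choroid plexus sum of 190 FPKM, above all 3 wildtype PBS libraries. That library also had the highest summed level of astrocyte markers in hippocampus, 2094 FPKM. Of 12 astrocyte markers, 2 rose in 5xFAD PBS hippocampus and 0 fell. Their summed level was 1569 to 2094 FPKM in 5xFAD EV, 1811 to 1947 FPKM in 5xFAD PBS and 1508 to 1646 FPKM in wildtype PBS hippocampi. The part of astrocyte or choroid plexus transcripts in the Clu values was not tested. In prefrontal cortex, Clu had 395, 427 and 415 FPKM in 5xFAD PBS, against 346, 389 and 351 FPKM in wildtype PBS libraries, a log2 difference of 0.19 (SE 0.09, limma adjusted p = 0.661).

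Clu was higher in hippocampus than in prefrontal cortex in each group, by 0.73 in 5xFAD EV, 0.77 in 5xFAD PBS and 0.45 in wildtype PBS on the log2 scale, and the mean over groups was 0.65 (SE 0.07, limma adjusted p = 1.33e-06). The lowest hippocampal library, at 433 FPKM, lay above the highest cortical one, at 427 FPKM. Apoe, the main lipid carrier of astrocytes, was higher in hippocampus as well, by 0.49 (SE 0.09, limma adjusted p = 0.000385), and its difference between 5xFAD PBS and wildtype PBS hippocampus was 0.64 (SE 0.18, limma adjusted p = 0.0826).

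Abca7, a transporter that moves lipids across membranes, had 2.48, 1.70 and 1.32 FPKM in 5xFAD EV, 2.14, 1.49 and 1.87 FPKM in 5xFAD PBS and 1.42, 1.58 and 1.33 FPKM in wildtype PBS hippocampi. The groups overlapped, and the interval of the 5xFAD PBS difference from wildtype PBS, -0.15 to 0.67 on the log2 scale, leaves room for a change of over 1.5-fold. Its relatives Abca1, the transporter that loads lipid onto apolipoproteins, and Abca9 did rise in 5xFAD PBS hippocampus, by 0.57 (SE 0.12, limma adjusted p = 0.0321) and 0.85 (SE 0.16, limma adjusted p = 0.0150).

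Of the 2 genes of adhesion signalling, Ptk2b differed by tissue, while the smaller tissue difference of Fermt2 was called only under some of the settings tried. Ptk2b encodes Pyk2, a calcium-responsive kinase of the focal adhesion family that is abundant in forebrain neurons. It had 240, 231 and 199 FPKM in 5xFAD EV, 216, 210 and 187 FPKM in 5xFAD PBS and 232, 228 and 252 FPKM in wildtype PBS hippocampi. Every 5xFAD PBS library lay below every wildtype PBS one, with a log2 difference of -0.22 that was not called (SE 0.10, 95% interval -0.44 to 0.01, limma adjusted p = 0.283). In prefrontal cortex, 8 of the 9 libraries lay between 130 and 148 FPKM, and 5xFAD EV replicate 3 was at 94.5 FPKM. Ptk2b was 222 ± 20.5 FPKM in hippocampus and 134 ± 16.1 FPKM in prefrontal cortex (SD, n = 9 each), a log2 difference of 0.72 (SE 0.07, limma adjusted p = 5.28e-07) without overlap. Its relative Ptk2, the focal adhesion kinase itself, lay the other way, lower in hippocampus by 0.36, at 16.8 ± 1.46 and 21.6 ± 1.42 FPKM (SD, n = 9 each, limma adjusted p = 1.98e-05). Ptk2b and Clu are near neighbours on their chromosome, with 4 protein-coding genes between them (Gulo, Adam2, Ephx2 and Chrna2) in RefSeq GRCm38.p6, and both were higher in hippocampus.

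Fermt2 encodes kindlin-2, which activates integrins. It had 25.7, 25.3 and 29.8 FPKM in 5xFAD EV, 27.2, 26.4 and 28.2 FPKM in 5xFAD PBS and 27.1, 27.7 and 27.1 FPKM in wildtype PBS hippocampi. The difference of 5xFAD PBS from wildtype PBS was -0.0010 with a 95% interval of -0.18 to 0.18. Its relative Fermt3, the kindlin of blood and microglial cells, rose to 3.70 ± 1.01 FPKM in 5xFAD PBS, against 1.30 ± 0.0128 FPKM in wildtype PBS hippocampi (SD, n = 3 each), a log2 fold change of 1.20 (SE 0.18, limma adjusted p = 0.00492). Fermt2 was higher in hippocampus than in prefrontal cortex by 0.12 (SE 0.05, limma adjusted p = 0.0358). That call did not hold with another scaling between libraries (0.10, adjusted p = 0.0855) or without any of 7 single libraries, where adjusted p was 0.0619 to 0.0811.

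Mef2c, a transcription factor of neuronal activity programmes that is also expressed in microglia, showed the largest tissue difference of the list. It had 3.42, 4.55 and 5.60 FPKM in 5xFAD EV, 3.46, 2.32 and 4.81 FPKM in 5xFAD PBS and 3.65, 5.65 and 2.37 FPKM in wildtype PBS hippocampi. In prefrontal cortex it had 16.1, 14.0 and 9.97 FPKM in 5xFAD EV, 15.2, 14.0 and 13.8 FPKM in 5xFAD PBS and 13.8, 12.2 and 12.8 FPKM in wildtype PBS libraries. The tissues did not overlap: Mef2c was lower in hippocampus by 1.69 on the log2 scale (SE 0.15, limma adjusted p = 1.69e-07), with differences of -1.46 in 5xFAD EV, -1.93 in 5xFAD PBS and -1.68 in wildtype PBS.

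Within hippocampus, Mef2c varied 2.43-fold between libraries, and the 3 groups overlapped. The 3 libraries with the most Mef2c, at 5.65, 5.60 and 4.81 FPKM, were also the 3 with the highest mean log2 level of 10 neocortical marker genes, at 2.63, 2.62 and 2.45, against 1.94 to 2.29 in the other 6. How far the dissected tissue accounts for the Mef2c values was not tested. The intervals of its hippocampal differences were wide, -0.78 to 0.58 for 5xFAD PBS against wildtype PBS and -0.34 to 1.02 for 5xFAD EV against 5xFAD PBS. Of its family, Mef2a was not called between tissues (0.06, limma adjusted p = 0.437) and Mef2d was lower in hippocampus by 0.15 (limma adjusted p = 0.0260). Camk4, a calcium-dependent kinase that acts on Mef2 factors, was lower in hippocampus by 1.12, at 9.87 ± 1.72 and 22.6 ± 7.31 FPKM (SD, n = 9 each, limma adjusted p = 1.31e-05).

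**Figure D4:**
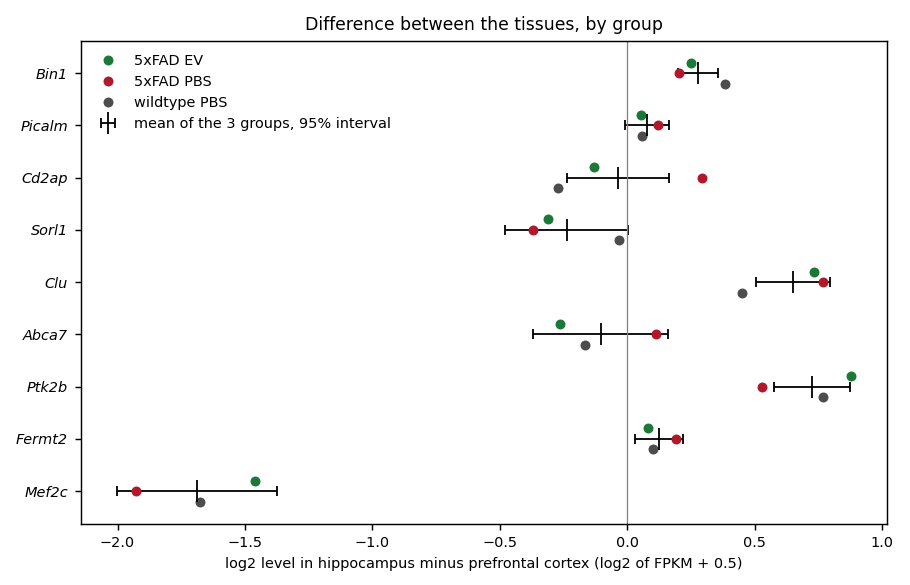
Log2 level in hippocampus minus prefrontal cortex (x axis) for each gene (y axis), with coloured points for the 3 groups and the black bar for their mean with its 95% interval. Mef2c lies at -1.69, Ptk2b at 0.72 and Clu at 0.65, and for every gene except Cd2ap and Abca7 the 3 groups lie on the same side of 0.

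The sequence before the first of the 3 RefSeq starts of Mef2c is shown because this gene carries the largest difference of the list. It is on the plus strand of chr13:83503784-83504033 in GRCm38.p6, 250 bases that end just before the start, and capitals mark the single match to TATAAA on either strand.
Mef2c: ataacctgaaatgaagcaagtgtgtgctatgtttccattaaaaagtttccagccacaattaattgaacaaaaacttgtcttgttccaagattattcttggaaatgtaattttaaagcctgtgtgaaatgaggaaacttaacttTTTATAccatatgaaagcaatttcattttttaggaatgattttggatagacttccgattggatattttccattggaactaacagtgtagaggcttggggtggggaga
The window is poor in G and C, at 33.6% against a median of 52.4% over all windows of the table, and holds 1 CpG against a median of 6. TATAAA occurs on either strand in 12.4% of 32851 windows of this length. GGGCGG, found in 32.7% of windows, CAGCTG, found in 13.0%, and TGACGTCA, found in 1.55%, have no match in it. These matches describe letters only, and which start was used in these libraries was not measured.

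The vesicle comparison in prefrontal cortex rested in part on the library that stood apart. In 5xFAD EV replicate 3, Abca7 was 3.68 FPKM, against 1.52 to 1.94 FPKM in the other 8 cortical libraries, Sorl1 was 49.3 against 25.5 to 37.8 FPKM, and Picalm was 46.7 against 40.9 to 44.6 FPKM. Ptk2b, at 94.5 against 130 to 148 FPKM, and Mef2c, at 9.97 against 12.2 to 16.1 FPKM, lay below all 8. Bin1, Clu and Fermt2 lay within the range of the other 8. With all libraries, the difference of 5xFAD EV from 5xFAD PBS was 0.36 for Abca7, 0.32 for Cd2ap, 0.20 for Sorl1, -0.22 for Ptk2b, -0.12 for Mef2c, -0.07 for Bin1, 0.07 for Picalm, -0.13 for Clu and 0.09 for Fermt2 on the log2 scale, and none was called. Without that library the values were 0.05 for Abca7, 0.19 for Cd2ap, -0.0024 for Sorl1, -0.04 for Ptk2b, 0.07 for Mef2c, -0.05 for Bin1, 0.03 for Picalm, -0.09 for Clu and 0.12 for Fermt2.

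In hippocampus, where the summed level of the 9 cerebellar genes was 43.0 to 56.6 FPKM, the differences of 5xFAD EV from 5xFAD PBS were 0.34 for Mef2c, 0.26 for Sorl1, 0.13 for Ptk2b, -0.10 for Cd2ap and -0.17 for Clu, and between -0.02 and 0.01 for the other 4. The libraries of 5xFAD EV and 5xFAD PBS overlapped for all 9 genes in both tissues, where 7.51% of all genes in hippocampus and 10.6% in prefrontal cortex did not. The narrowest intervals were those of Picalm, -0.07 to 0.22, and Bin1, -0.22 to 0.09, in prefrontal cortex, and Bin1, -0.18 to 0.15, in hippocampus. A difference of the vesicle effect between the tissues was not shown for any of the 9 (limma called 0 of 13574 genes, with 680 at an unadjusted p under 0.05, and voom called 0). The lowest p-values were those of Ptk2b, with a difference of 0.35 (95% interval -0.02 to 0.71, unadjusted p = 0.0605, limma adjusted p = 0.995), and Cd2ap, with -0.43 (95% interval -0.91 to 0.06, limma adjusted p = 0.995). Without 5xFAD EV prefrontal cortex replicate 3 these differences were 0.17 for Ptk2b and -0.29 for Cd2ap.

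Lists of genes around the 9 give the setting. Of 47 other Alzheimer risk genes tested in hippocampus, 10 rose in 5xFAD PBS against wildtype PBS and 0 fell, with a median log2 fold change of 0.12 over the list and 0.02 over all genes. These were led by genes of microglia and lysosomes: the lipid-sensing receptor Trem2 (2.86), the lysosomal protease Ctsh (1.49), the lysosomal protein progranulin, Grn (1.36), and the myeloid transcription factor Spi1 (1.29). In prefrontal cortex 6 of 46 rose and 0 fell. Of 34 endocytic genes, only Bin2 rose in hippocampus and 0 in prefrontal cortex. Of 20 VPS10 receptors and retromer genes and of 9 genes of the MEF2 group, limma called 0 in either tissue, with 6 VPS10 or retromer genes and 1 MEF2 group gene at an unadjusted p under 0.05 in hippocampus and 0 in prefrontal cortex. Among genes of lipid transport, those that rose in hippocampus included Abca9 and Abca1, and of 24 genes of integrin adhesion, Fermt3, Itgb5 (1.11) and Itgb1 (0.55) rose there. No gene of these lists was called between 5xFAD EV and 5xFAD PBS in either tissue. Between tissues, 12 of 34 endocytic genes were lower in hippocampus and 7 higher, led by Fnbp1l, an actin-linked membrane-bending protein, at -1.33, and Itgav, an integrin chain, was lower there by 0.94.

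The genes most like each member were found by Pearson correlation of log2(FPKM + 0.5), less the tissue mean, over 18 libraries, which share groups and the library that stood apart. Those nearest Cd2ap were Rp2 (r = 0.955), Tlr3, an innate sensor of double-stranded RNA (0.940), and Rrbp1 (0.936), and the same 3 genes were nearest in the 17 libraries without 5xFAD EV prefrontal cortex replicate 3, at 0.945, 0.946 and 0.926. Those nearest Clu were Tmed3 (0.973), Apoe (0.949) and Tmem176b (0.942) over 18 libraries, and Tmed3, Cndp2 and Gm2a (0.958 to 0.979) over 17. Those nearest Sorl1 were Erc1, a scaffold of the synaptic release site (0.977), St8sia1 (0.957) and Dock9 (0.956) over 18 libraries, and Bsn, Erc1 and Kcnj6 (0.967 to 0.971) over 17. The nearest to Ptk2b were Camkv, Lrrtm1 and Rgs14 (0.914 to 0.936) over 18 libraries, and over 17 all 3 were replaced, by Arhgap39, Mrtfa and Parp1 (0.906 to 0.918). The nearest to Mef2c were Rasgef1c, St6gal2 and Rgs6 over both 18 (0.893 to 0.902) and 17 libraries (0.892 to 0.951). Over 18 libraries the 3 nearest genes reached 0.893 to 0.908 for Abca7, 0.859 to 0.870 for Picalm, 0.830 to 0.850 for Bin1 and 0.797 to 0.839 for Fermt2. Among the members themselves, Picalm and Cd2ap varied together (r = 0.701), and Sorl1 and Ptk2b had r = -0.043 over 18 libraries and 0.726 over 17, a value that turned on 1 library.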

How the data were processed

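The deposited table holds FPKM values for 18683 genes in 18 libraries. Per the submitters' processing notes, the authors used fastp, HISAT2, HTSeq and GRCm39 (no versions or roles stated), and libraries were made with a VAHTS Universal V5 kit and run on a NovaSeq, per the labels' protocols. The annotation, the gene lengths and whether strand was used are not stated, so reads of overlapping antisense genes cannot be told apart. Groups and replicate numbers came from sample titles.

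Within each library the FPKM steps were whole reads for 100% of genes (tolerance 0.01), giving 26437852 to 36901744 reads in listed genes. Tests ran on log2(FPKM + 0.5) in limma 3.58.1 (R 4.3.3), with eBayes and an intensity trend, two-sided, on genes that reached 0.5 FPKM in 3 or more fitted libraries, with Benjamini-Hochberg adjustment over all genes tested and calls below 0.05. All adjusted p-values come from limma. The added 0.5 makes fold changes of low genes too small. In-tissue comparisons used the 9 libraries of the tissue, and tissue comparisons all 18. Deviations from the group mean were correlated between libraries with the same replicate number. All correlations of a comparison exceeded 0.1 only for 5xFAD PBS against wildtype PBS prefrontal cortex (0.213, 0.509 and 0.169). There a block for the number changed no call among the 9 genes. Single correlations elsewhere reached 0.406 (replicate 1, 5xFAD PBS against wildtype PBS hippocampus) and 0.495 (5xFAD PBS replicate 2 between the tissues), and others fell as low as -0.409. Alternatives were pseudocounts of 0.1 and 1, no filter, scaling by median ratios, no trend, the block, leaving out each library, only the 6 libraries compared, and voom on the recovered reads. The script was tested on simulated data.

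The 9 genes and the gene lists were chosen with earlier results of these data known. Named genes were the 9, up to 4 called genes per list with the largest change, 11 close relatives, and the 3 genes most correlated with each member; 1 gene that the rule named is not reported here. Promoter windows are those of RefSeq GRCm38.p6, which held 6 of the 9 genes. GENCODE lengths come from vM21, another build, and were used only to judge the length behind the Mef2c values.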

Additional observations from a re-analysis of the deposited data

How the results depend on the processing

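Of 1341 values of the 9 genes under the alternatives, 1270 kept their direction and their side of the threshold, 55 changed sign, 13 lost a call and 3 gained one, and no value that was called changed sign. Leaving out single libraries gave 0 to 1 called members for 5xFAD PBS against wildtype PBS hippocampus. A replicate block gave 1 called member for 5xFAD EV against wildtype PBS hippocampus, Cd2ap (0.69, limma adjusted p = 0.0468, between 0.0468 and 0.221 over the alternatives). Deviations of libraries with equal numbers correlated there at 0.049, -0.2 and 0.133. The block ended the call of Fermt2 between the tissues (0.12, limma adjusted p = 0.0592), where such correlations ran from -0.275 to 0.495. The labels do not say what libraries with equal numbers share, so neither the blocked nor the unblocked result is preferred by them. For 5xFAD PBS against wildtype PBS hippocampus, the block gave 503 called genes beside 611. Voom called 542 genes there. Over all genes, leaving out single libraries of the 2 groups compared gave 320 to 446 calls beside 611 for 5xFAD PBS against wildtype PBS hippocampus and 142 to 218 beside 256 in cortex, while leaving out replicate 3 of the third group, 5xFAD EV, gave 785 in hippocampus and 289 in cortex. For 5xFAD EV against wildtype PBS, leaving out single libraries of these 2 groups gave 159 to 278 beside 280 in hippocampus and 89 to 229 beside 198 in cortex, where fitting only the 6 libraries compared gave 118. Scaling by median ratios turned the sign of Picalm (-0.0025) and Sorl1 (-0.0116) in 5xFAD PBS against wildtype PBS cortex, of Fermt2 (-0.04) and Mef2c (-0.0172) in 5xFAD EV against wildtype PBS cortex, of Bin1 (0.0022) and Fermt2 (0.0005) in 5xFAD EV against 5xFAD PBS hippocampus, and of Clu (0.0056) in the tissue difference of the vesicle effect, all values near 0. Ranges over single libraries left out that crossed 0 were, for 5xFAD PBS against wildtype PBS cortex, Sorl1 -0.15 to 0.11, Abca7 -0.070 to 0.036 and Ptk2b -0.026 to 0.067. In hippocampus they were Fermt2 -0.025 to 0.021 and Mef2c -0.37 to 0.18. For 5xFAD EV against 5xFAD PBS they were Sorl1 -0.0024 to 0.32 and Mef2c -0.27 to 0.065 in cortex, and Bin1 -0.054 to 0.023, Picalm -0.059 to 0.048, Abca7 -0.21 to 0.15 and Fermt2 -0.094 to 0.023 in hippocampus. For 5xFAD EV against wildtype PBS they were Clu -0.0064 to 0.11, Fermt2 -0.053 to 0.045 and Mef2c -0.12 to 0.21 in cortex, and Sorl1 -0.16 to 0.084, Fermt2 -0.095 to 0.022 and Mef2c -0.032 to 0.52 in hippocampus. For hippocampus against cortex the range was -0.080 to 0.016 for Cd2ap, and for differences between tissues it was -0.52 to 0.029 for Mef2c in the genotype effect, and -0.086 to 0.26 for Sorl1 and -0.11 to 0.064 for Clu in the vesicle effect. The cause of these changes was not tested. With 3 libraries a group, the 95% intervals of the vesicle effect reach beyond 0.5 on the log2 scale for Cd2ap, Sorl1, Abca7 and Ptk2b in cortex and for Sorl1 and Mef2c in hippocampus.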
